A study of Mus musculus with 6 samples.

Results

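Dividing mesenchymal cells of the injured mouse rotator cuff enthesis, the site where tendon inserts into bone, were examined at 7 days post injury (dpi) in 6 single-cell RNA libraries. They were chosen on measured values. A barcode had to hold at least 2000 unique molecular identifiers (UMIs), at least 200 genes and at most 10% mitochondrial UMIs. Col1a1, Col1a2 and Col3a1 together had to make up at least 0.5% of its UMIs and S100a8 with S100a9 under 1%, with 0 UMIs of Ptprc (CD45, carried by leukocytes) and of Cdh5 (carried by endothelial cells). Among these mesenchymal cells, those with at least 2 UMIs of Mki67 and Top2a together were called dividing. They numbered 1784 of 13415 mesenchymal cells and of 64599 cells that passed the limits on depth, genes and mitochondrial UMIs. The remaining 11631 mesenchymal cells are the non-dividing cells below. The 9 genes of these limits served the selection, so their levels are given as a description without a test.

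The 6 libraries came from entheses that had been cut and repaired, 3 from wild-type (C57BL/6) mice and 3 from Nlrp3-/- mice, a knockout of the sensor protein of the NLRP3 inflammasome for which the labels name no promoter or cell type. Entheses were pooled, and the labels give neither the number nor the age nor the sex of the animals behind a library, so the library is the replicate and p-values measure the spread between libraries. No uninjured or sham tissue is among these 6 libraries. The titles name Nlrp3 for all 3 knockout libraries, whereas the genotype field of replicates 2 and 3 reads Nlrp4 and Nlrp5. The dividing cells of the 3 knockout libraries held 0 Nlrp3 UMIs, against 149 in the wild-type libraries, where Nlrp3 lay at 4.94, 7.25 and 7.88 CPM (UMIs per 1000000 UMIs, summed over the cells of a library). Xist, the RNA that coats the inactive X chromosome of female cells, lay at 888, 772 and 737 CPM in the Nlrp3-/- libraries and at no more than 0.377 CPM in the wild-type libraries. The Y-linked gene Ddx3y lay at 42.2, 43.2 and 61.5 CPM in wild-type and had 0 UMIs in Nlrp3-/- dividing cells. Genotype and sex therefore cannot be told apart in any comparison of the groups. The authors name different suppliers for the wild-type and the Nlrp3-/- mice, so the source of the animals cannot be told apart from genotype either.

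A cell that leaves rest and enters the cycle passes through G1, copies its DNA in S phase, prepares in G2 and separates its chromosomes in mitosis (M). Mki67 encodes the Ki-67 protein that coats mitotic chromosomes, and Top2a encodes a topoisomerase that untangles sister DNA; transcripts of both are most abundant in G2 and M, so a count of these RNAs finds late cycle stages more readily than G1 or early S. Mesenchymal cells at a healing enthesis include fibroblasts that lay down collagen matrix, tendon cells (tenocytes), fibrocartilage chondrocytes, lining cells of the neighbouring synovium and contractile myofibroblasts. Prg4 (lubricin, of the synovial lining and joint surface), Aspn (asporin, a small matrix proteoglycan of fibroblasts and periosteum), Tnmd (tenomodulin, of mature tenocytes), Col2a1 (type II collagen of cartilage) and Acta2 (smooth muscle actin, of myofibroblasts and mural cells) mark these lineages.

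Depth set one library apart. Dividing cells held a median of 22938, 21642 and 23706 UMIs in the wild-type libraries and 4748, 22544 and 20094 in the Nlrp3-/- libraries, so Nlrp3-/- replicate 1 was several times shallower than the rest. Non-dividing cells held medians of 13412, 13192, 15796, 4250, 13690 and 12432 UMIs in the same order. In each of the libraries the dividing cells were deeper, by a ratio of 1.71, 1.64, 1.501, 1.12, 1.65 and 1.62. A limit of 2 UMIs is met more easily in a deep cell, and the differences between dividing and non-dividing cells are therefore also given against depth-matched non-dividing cells, and the share of dividing cells and the carriers after thinning. The comparisons of genes between the genotypes and of replication with mitosis were made at full depth only. The match was incomplete, since it found 210 for 220, 419 for 474, 207 for 223, 312 for 324, 238 for 238 and 298 for 305 dividing cells, with medians of 21868, 20037, 22667, 4524, 21768 and 19786 UMIs that lay below those of the dividing cells in each library. Dcn, a proteoglycan of fibroblasts, was seen in 87.1% of the dividing cells and a PDGF receptor (Pdgfra or Pdgfrb) in 87.9%. Of the 53 dividing cells with no UMI of these 3 genes, 45 were in Nlrp3-/- replicate 1. Tyrobp, an adaptor of myeloid cells, had at least 2 UMIs in 23.5% of the dividing cells of that library and in 4.62% to 15% elsewhere. No barcode of a dividing cell was shared between libraries. Doublets were kept, and removing the highest Scrublet scores took out 203 of the 1784 cells, 9.09, 8.23 and 12.1% in the wild-type and 5.86, 19.7 and 16.7% in the Nlrp3-/- libraries. Of non-dividing cells it took 6.33, 4.89 and 2.59% and 8.65, 6.50 and 4.48%, less than of dividing cells in each library but Nlrp3-/- replicate 1. The total depth of the libraries was 97042713 to 134901999 UMIs.

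The dividing cells carried a broad cell-cycle program. Mki67 lay at 237, 213 and 209.6 CPM in the wild-type libraries and 243, 262 and 212 CPM in the Nlrp3-/- libraries, and Top2a at 294, 298 and 302 CPM in the wild-type libraries and 373, 419 and 318 CPM in the Nlrp3-/- libraries. Their non-dividing counterparts, limited by the rule to at most 1 UMI of the pair, lay at 1.89 to 7.81 CPM for Mki67 and 3.37 to 10.8 CPM for Top2a. The median sum of the pair per dividing cell was 9.50, 8, 8, 3, 9 and 6 UMIs, lowest in the shallow Nlrp3-/- replicate 1, and 62.7% to 76.6% of the dividing cells per library had UMIs of both genes. Col1a1, the third marker of these cells, lay at 9789, 9736 and 26426 CPM in the wild-type libraries and 16379, 16541 and 17875 CPM in the Nlrp3-/- libraries, below the 13405 to 36111 CPM of non-dividing cells in every library.

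The 36 genes of a DNA replication list lay higher in dividing than in non-dividing cells without exception, at a median log2 fold change of 2.59, and so did the 46 genes of a G2/M list at 4.83 and the 22 chromatin and tubulin genes at 1.86. These lists follow the genes that selected the cells and are a description. Among the replication genes, Pcna, the sliding clamp of the replication fork, averaged 185 ± 18.3 CPM in dividing (SD, n = 6 libraries) against 56.8 ± 9.94 CPM in non-dividing cells, Tyms, which makes thymidylate, 168 ± 42.0 CPM against 28.4 ± 8.91 CPM, and Rrm1, a subunit of ribonucleotide reductase, 121 ± 7.04 CPM against 19.99 ± 4.31 CPM. Of the mitotic genes, Ube2c, which loads ubiquitin for the anaphase-promoting complex, averaged 473 ± 44.1 CPM against 10.3 ± 6.14 CPM. Birc5 (survivin, of the chromosomal passenger complex) averaged 411 ± 22.4 CPM against 16.5 ± 6.65 CPM. Cks2, a partner of cyclin-dependent kinases, averaged 429.7 ± 42.6 CPM against 52.3 ± 12.8 CPM, and Cenpa, the histone of the centromere, 352 ± 67.1 CPM against 27.9 ± 5.63 CPM. H2afz, a histone H2A variant, averaged 2467 ± 248 CPM against 608 ± 115 CPM.

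Cells with more Mki67 and Top2a UMIs carried more of the program, on both sides of the limit. Over all libraries, 10262 mesenchymal cells had none, 1369 had 1 UMI, 390 had 2, 440 had 3 to 5 and 954 had 6 or more. After each cell was thinned to 2000 UMIs, the G2/M list gave means of 0.657, 2.02, 4.43, 7.05 and 13.9 UMIs per cell over these classes. The replication list gave 0.838, 1.45, 2.75, 3.60 and 4.18 UMIs. The class of 1 UMI drew on the shallow Nlrp3-/- replicate 1, which supplied 353 of its cells and had means of 3.90 G2/M and 2.65 replication UMIs there, against 0.953 to 1.74 and 0.764 to 1.27 in the other 5 libraries. The cells just outside the limit, with 1 UMI, carried more of both lists than cells with none and less than those just inside with 2 UMIs. Cells with more G2/M than replication UMIs made up 53.3%, 62.0% and 77.7% of the 3 dividing classes, and cells with more replication than G2/M UMIs 32.6%, 33.0% and 18.6%. In Nlrp3-/- replicate 1 the cells with 2 UMIs of the pair had a median of 3099 UMIs in all, against 17794 for those with 6 or more.

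**Figure D1:**
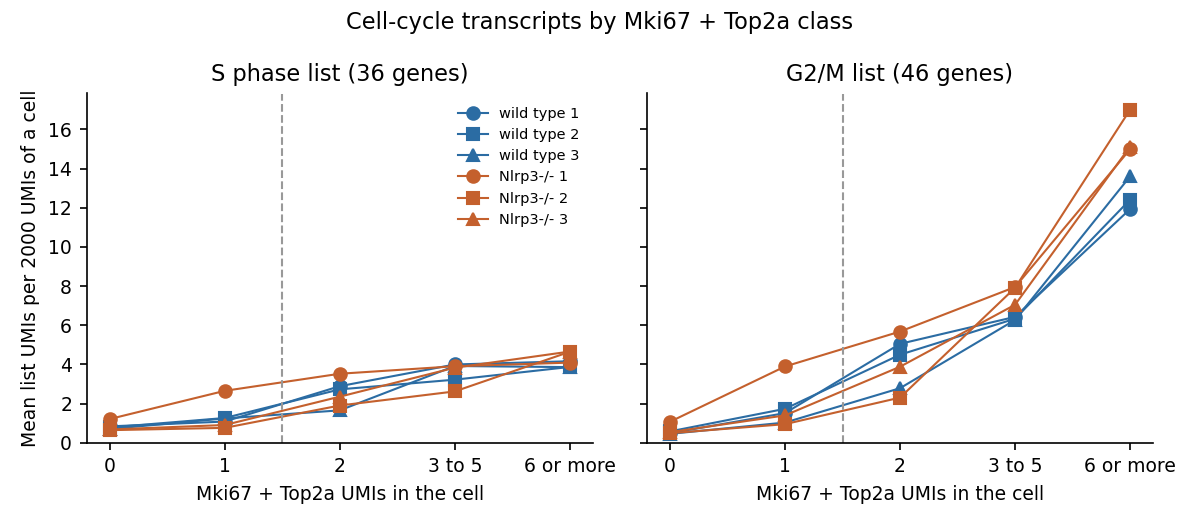
Mean UMIs of the 36 replication genes (left) and the 46 G2/M genes (right) in cells thinned to 2000 UMIs, against the Mki67 plus Top2a UMIs of the cell, 1 line per library, blue for wild type and orange for Nlrp3-/-. The dashed line is the limit between non-dividing and dividing cells, and over all libraries the G2/M mean goes from 2.02 UMIs just left of it to 4.43 just right of it and 13.9 in the highest class.

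The balance of replication against mitosis within the dividing cells was compared between the genotypes. The log2 ratio of the summed replication list to the summed G2/M list was -1.37, -1.41 and -1.43 in the wild-type libraries and -1.43, -1.78 and -1.40 in the Nlrp3-/- libraries. Nlrp3-/- replicate 2 lay below the other 5 libraries, and the groups overlapped. The difference was -0.13 on the log2 scale (exact two-sided permutation test over 20 assignments, p = 0.5, where the smallest possible p is 0.1). It rested on Nlrp3-/- replicate 2, without which it was -0.00697 (exact permutation p = 0.900), and it was -0.21 with a collagen limit of 2% (exact permutation p = 0.1). The replication list took 0.188% ± 0.00166 (SD, n = 3) of the UMIs of dividing cells in wild type and 0.197% ± 0.0101 in Nlrp3-/- (exact permutation p = 0.4). The G2/M list took 0.497% ± 0.00719 in wild type and 0.571% ± 0.0573 in Nlrp3-/- without overlap, at the smallest p the design allows (exact permutation p = 0.1). The cells were selected by Mki67 and Top2a, whose transcripts are most abundant in G2 and M. A limit of 2 UMIs is a larger part of a cell in Nlrp3-/- replicate 1 (median 4748 UMIs) than in the other libraries (20094 to 23706). The part of selection and depth in this difference was not tested.

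The promoters of these genes were read because the cycle genes moved together. Genes of mitosis are known to share CCAAT boxes, bound by NF-Y, and the cell cycle homology region (CHR), while genes of replication are known for E2F sites. In the 250 bases before the start of each gene (RefSeq, GRCm38.p6, both strands), the letters CCAAT were searched for the box, the letters TTTGAA for the core of the CHR, and TTTGGCGC, TTTCGCGC or TTTCCCGC for an E2F site, and matches of different motifs were allowed to overlap. Of the G2/M list, 39 of 46 genes had a promoter in the table, of which 74.4% held CCAAT, 25.6% TTTGAA and 23.1% both. Of the replication list, 28 of 36 were found, with CCAAT in 67.9%, TTTGAA in 14.3% and an E2F site in 28.6%. Among all 27025 promoters the shares were 37.5% for CCAAT, 18.3% for TTTGAA, 6.45% for both and 1.78% for an E2F site. Among the 10257 promoters of genes tested here they were 40.5%, 12.8%, 4.77% and 3.39%. Only 1 G2/M promoter held an E2F site. TTTGAA was not particular to the mitotic genes, since of the small leucine-rich proteoglycans, which fell in dividing cells (below), 4 of 9 promoters (44.4%) held it. CCAAT was in 2 of these 9 (22.2%) and both in 0. A match is a description of the letters, not of a bound site.

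The 200 bases before the start are printed for the marker Top2a (chr11:99024190-99024389, minus strand), for Cdk1, the kinase that drives entry into mitosis (chr10:69352913-69353112, minus strand), for Cdc20, which activates the anaphase-promoting complex (chr4:118437344-118437543, minus strand), and for Mcm5, a subunit of the replicative helicase (chr8:75109309-75109508, plus strand). They were chosen after the sequences had been read, to show each kind of match. Each reads 5′ to 3′ on the strand of the gene, and capitals mark the matches, where ATTGG and TTCAAA are CCAAT and TTTGAA on the other strand.
Top2a: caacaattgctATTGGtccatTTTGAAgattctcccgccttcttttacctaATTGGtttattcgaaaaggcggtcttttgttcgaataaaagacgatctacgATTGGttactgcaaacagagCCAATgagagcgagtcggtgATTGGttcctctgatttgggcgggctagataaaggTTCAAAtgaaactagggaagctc
Cdk1: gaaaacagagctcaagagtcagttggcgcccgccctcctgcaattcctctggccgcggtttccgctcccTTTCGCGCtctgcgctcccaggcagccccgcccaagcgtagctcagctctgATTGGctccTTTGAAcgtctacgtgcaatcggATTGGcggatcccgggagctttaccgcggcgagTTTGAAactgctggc
Cdc20: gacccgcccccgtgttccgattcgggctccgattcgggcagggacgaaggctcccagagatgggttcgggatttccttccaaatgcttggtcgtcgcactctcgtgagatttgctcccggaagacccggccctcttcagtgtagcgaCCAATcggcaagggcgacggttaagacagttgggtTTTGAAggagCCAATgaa
Mcm5: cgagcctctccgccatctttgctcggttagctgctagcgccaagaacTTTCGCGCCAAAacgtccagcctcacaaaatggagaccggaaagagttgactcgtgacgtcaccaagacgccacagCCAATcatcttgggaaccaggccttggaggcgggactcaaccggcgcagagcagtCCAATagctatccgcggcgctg
Top2a held 5 CCAAT matches and 2 TTTGAA matches. Cdk1 held 2 of each and 1 E2F match, and Cdc20 held 2 CCAAT matches and 1 TTTGAA match. Mcm5 held 2 overlapping E2F matches on opposite strands and 2 CCAAT matches but no TTTGAA. In the dividing cells, Cdk1 averaged 240.4 ± 38.4 CPM against 13.9 ± 3.06 CPM in non-dividing cells, Cdc20 142 ± 31.5 CPM against 5.07 ± 1.30 CPM and Mcm5 51.8 ± 5.39 CPM against 6.60 ± 2.35 CPM (SD, n = 6 libraries).

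The share of mesenchymal cells that divided was compared between the genotypes. In wild-type libraries, 220 of 1199 mesenchymal cells (18.3%, Wilson 95% confidence interval 16.3 to 20.6%), 474 of 2497 (19.0%, 17.5 to 20.6%) and 223 of 1495 (14.9%, 13.2 to 16.8%) were dividing. In Nlrp3-/- libraries, 324 of 3144 (10.3%, 9.29 to 11.4%), 238 of 2007 (11.9%, 10.5 to 13.3%) and 305 of 3073 (9.93%, 8.92 to 11.0%) were. The intervals cover counting error only. The shares averaged 17.4% ± 2.19 (SD, n = 3) in wild type and 10.7% ± 1.02 in Nlrp3-/- without overlap, a difference of -6.72 percentage points at the smallest p that 3 against 3 libraries allow (exact two-sided permutation test, p = 0.1). Without the shallow Nlrp3-/- replicate 1 the difference was -6.52 points.

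Depth bears on this share. With each cell thinned to 2000 UMIs before Mki67 and Top2a were counted, 5.09, 5.69 and 3.95% of the cells met the limit in wild type and 4.74, 3.84 and 2.41% in Nlrp3-/- libraries. The groups then overlapped, since Nlrp3-/- replicate 1 lay above wild-type replicate 3, and the means of 4.91% ± 0.884 and 3.66% ± 1.18 (SD, n = 3) differed by -1.25 points (exact permutation p = 0.2). Mesenchymal cells themselves made up 16.6% ± 4.22 of the cells past the depth limits in wild type and 24.2% ± 4.02 in Nlrp3-/- (exact permutation p = 0.2), so the denominator of the share also varied between libraries.

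**Figure D2:**
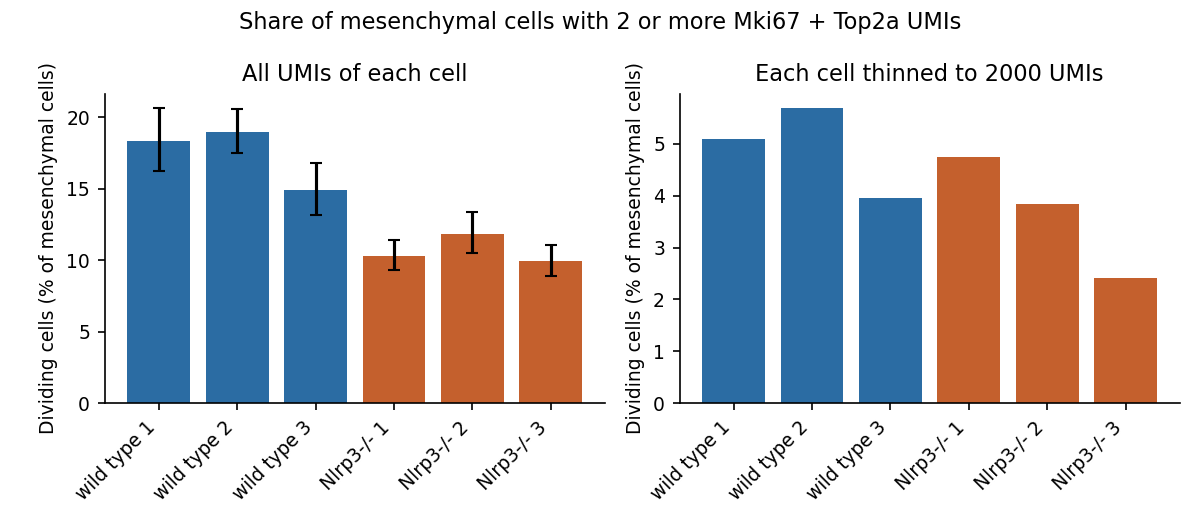
Dividing cells as a percentage of mesenchymal cells in each library, from all UMIs with Wilson 95% intervals (left) and after each cell was thinned to 2000 UMIs (right), blue for wild type and orange for Nlrp3-/-. On the left the 3 wild-type bars stand between 14.9% and 19.0% and the Nlrp3-/- bars between 9.93% and 11.9%; on the right the groups overlap.

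Lineage genes separated the dividing from the non-dividing cells in the same direction in all 6 libraries. Prg4 and Acta2 were higher in dividing cells, whereas Aspn, Tnmd and Col2a1 were lower (the edgeR quasi-likelihood test with Benjamini-Hochberg adjustment, library as a block). Over all 13277 genes tested, 53.4% passed the threshold of 0.05, 24.9% higher and 28.5% lower in dividing cells, at a median log2 fold change of -0.04, and the 5 genes are to be read against that background. Prg4 (ENSMUSG00000006014, lubricin) lay at 1637, 1166 and 1646 CPM in the wild-type libraries and 962, 2297 and 2706 CPM in the Nlrp3-/- libraries in dividing cells. In non-dividing cells it lay at 755, 754 and 836 CPM in the wild-type libraries and 357, 1389.9 and 1140.2 CPM in the Nlrp3-/- libraries. Each library was higher in its dividing cells, by 1.01 on the log2 scale with a standard error of 0.10 (edgeR adjusted p = 9.03e-06), and by 0.57 against depth-matched non-dividing cells (edgeR adjusted p = 0.00195). Acta2 (ENSMUSG00000035783, smooth muscle actin) lay at 1436, 1448 and 1357 CPM in the wild-type libraries and 1118, 465 and 1452 CPM in the Nlrp3-/- libraries in dividing cells and at 897, 969.7 and 971 CPM in the wild-type libraries and 965, 313 and 843 CPM in the Nlrp3-/- libraries in non-dividing cells. Nlrp3-/- replicate 2 had the lowest Acta2 in either state. The difference was 0.54 ± 0.06 (SE, edgeR adjusted p = 3.82e-05) and 0.41 with matched depth (edgeR adjusted p = 0.0122).

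Aspn (ENSMUSG00000021388, asporin) lay at 763, 573 and 1800.2 CPM in the wild-type libraries and 1238, 860.1 and 1288 CPM in the Nlrp3-/- libraries in dividing cells. Non-dividing cells held 1311, 1257 and 3177 CPM in the wild-type libraries and 2938, 2046 and 3105 CPM in the Nlrp3-/- libraries, more than their dividing counterparts in each library. The log2 difference was -1.09 ± 0.08 (SE, edgeR adjusted p = 7.41e-07), and -0.73 with matched depth (edgeR adjusted p = 3.06e-04). Tnmd (ENSMUSG00000031250, tenomodulin) lay at 41.1, 88.4 and 107 CPM in the wild-type libraries and 78.5, 157 and 52.1 CPM in the Nlrp3-/- libraries in dividing cells and at 78.5, 103 and 307 CPM in the wild-type libraries and 249, 284 and 264 CPM in the Nlrp3-/- libraries in non-dividing cells. The gap was narrow in wild-type replicate 2 and wide in Nlrp3-/- replicate 3. It came to -1.25 ± 0.22 (SE, edgeR adjusted p = 7.79e-04), or -0.77 with matched depth (edgeR adjusted p = 0.0103).

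Col2a1 (ENSMUSG00000022483, type II collagen) differed between libraries far more than between states. Dividing cells held 1239.6, 1.41 and 778 CPM in the wild-type libraries and 16.1, 10639 and 164 CPM in the Nlrp3-/- libraries, and non-dividing cells 4214, 10.0 and 1692 CPM in the wild-type libraries and 451, 12674 and 208 CPM in the Nlrp3-/- libraries. Nlrp3-/- replicate 2 thus stood far above wild-type replicate 2, in which the gene was nearly absent. Within libraries the dividing cells were lower in 6 of 6, with a log2 difference of -1.45 ± 0.43 (SE, edgeR adjusted p = 0.0159) and of -2.25 with matched depth (edgeR adjusted p = 0.00128). Without the shallow Nlrp3-/- replicate 1 the 5 differences were 0.95 for Prg4, 0.63 for Acta2, -1.04 for Aspn, -1.16 for Tnmd and -0.99 for Col2a1, all still past the threshold. The call for Col2a1 was lost when 1 UMI of Mki67 and Top2a sufficed (-0.58, edgeR adjusted p = 0.283) and with a collagen limit of 2% (-0.96, edgeR adjusted p = 0.0545).

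**Figure D3:**
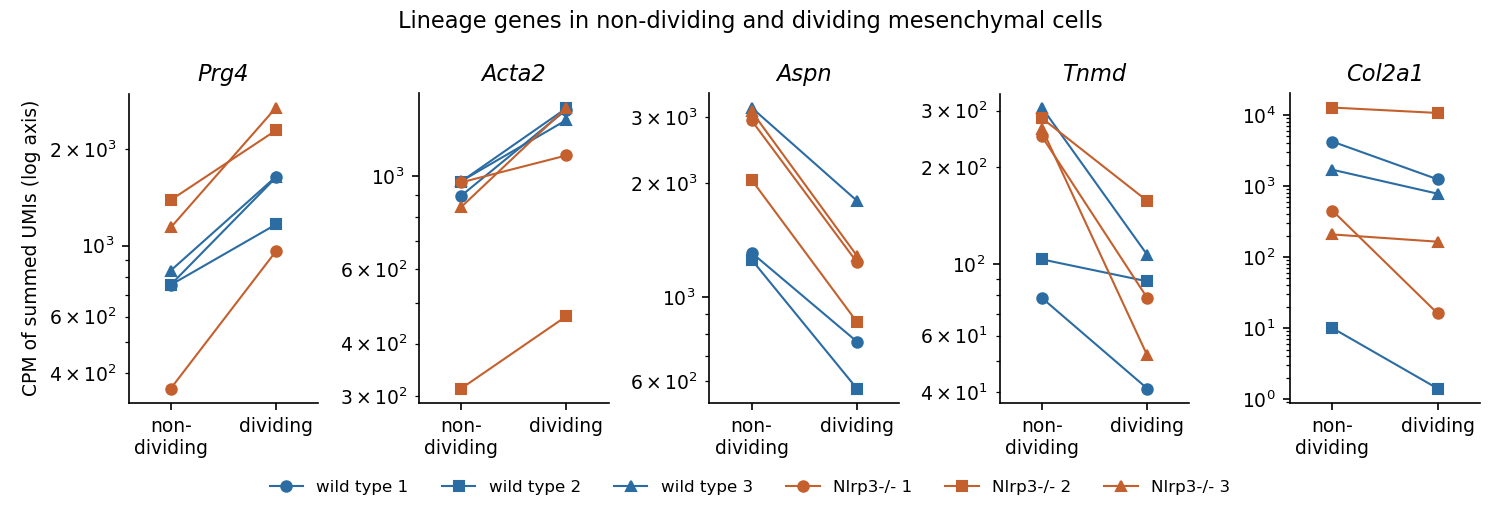
CPM of the 5 lineage genes in the summed non-dividing and dividing cells of each library, on log axes that differ between panels, with a line joining the 2 states of a library. All 6 lines rise for Prg4 and Acta2 and fall for Aspn, Tnmd and Col2a1.

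The lineage genes were also read over the classes of 0, 1, 2, 3 to 5 and 6 or more Mki67 and Top2a UMIs, as means of the 6 libraries. Prg4 went through 842, 1073, 1037, 1625 and 1956 CPM and Acta2 through 796, 1015, 1253, 1217 and 1215 CPM, both highest in the classes past the limit. Aspn went through 2398, 1665, 1255, 1055 and 1033 CPM and Tnmd through 225, 144, 95.3, 99.9 and 78.1 CPM, both lowest in the top class. Col2a1 went through 2969, 4594, 2845, 3637 and 1617 CPM, a mean carried by Nlrp3-/- replicate 2. Cells with 1 UMI of the pair held Prg4 at 1073 ± 699 CPM and cells with 2 UMIs held 1037 ± 573 CPM (SD, n = 6). From 1 to 2 UMIs Prg4 rose in wild-type replicate 1 (826 to 1164 CPM) and Nlrp3-/- replicate 1 (184 to 323 CPM). It fell in the other libraries, so the step across the limit had no common direction for this gene.

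The same lineages were followed cell by cell. After thinning to 2000 UMIs, a cell with at least 1 UMI of a gene was called a carrier, so that cells of all depths were read alike. Prg4 was carried by 38.2, 31.2 and 45.7% in the wild-type libraries and 24.4, 40.8 and 48.2% in the Nlrp3-/- libraries among dividing cells. Aspn was carried by 58.6, 51.1 and 78.0% in the wild-type libraries and 71.6, 58.8 and 72.8% in the Nlrp3-/- libraries, and Acta2 by 64.1, 64.8 and 58.3% in the wild-type libraries and 52.2, 25.2 and 55.7% in the Nlrp3-/- libraries. These were the lineage RNAs most often seen in the dividing cells of 5 libraries, the exception being Nlrp3-/- replicate 2, where Col2a1 was carried more often than Prg4 and Acta2. Tnmd was carried by 4.55, 4.64 and 17.5% in the wild-type libraries and 12.04, 14.3 and 6.23% in the Nlrp3-/- libraries, and Col2a1 by 5.91, 0.211 and 6.28% in the wild-type libraries and 2.47, 46.2 and 0.984% in the Nlrp3-/- libraries. Col2a1 was widespread among the dividing cells of Nlrp3-/- replicate 2 alone, while wild-type replicate 2 had 1 dividing carrier. Without thinning, the shares of dividing cells with a UMI were 35.8% to 69.8% for Prg4, 52.9% to 90.7% for Acta2, 83.0% to 95.4% for Aspn, 14.6% to 38.7% for Tnmd and 3.16% to 84.9% for Col2a1 over the libraries.

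Free RNA in the droplets was gauged in 8957 neutrophil-like barcodes (S100a8 and S100a9 at 1% of UMIs or more, Ptprc present, no Mki67 or Top2a), a cell type that should lack these genes, which had medians of 3170 to 4029.5 UMIs against 4748 to 23706 in dividing cells and were thinned alike. They carried Prg4 in 3.14%, Aspn in 9.75%, Tnmd in 1.64%, Col2a1 in 7.19% and Acta2 in 12.1% of barcodes on average. Aspn reached 31.2% in those of Nlrp3-/- replicate 1 and Col2a1 30.5% in those of Nlrp3-/- replicate 2. The dividing cells lay above their own library's neutrophil-like barcodes for Prg4, Aspn, Tnmd and Acta2 in all 6 libraries. For Col2a1 the share of Nlrp3-/- replicate 3 lay below it (0.984% against 1.31%). Without thinning the order was opposite (8.52% against 2.63%), and whether this share is free RNA was not tested. The Col2a1 share of wild-type replicate 1 lay close to that of its neutrophil-like barcodes (5.91% against 5.72%), and without thinning the shares were 38.6% and 12.9%. The neutrophil-like barcodes were shallower (medians of 4009 against 22938 UMIs in that library), and whether the thinned shares of free RNA are alike at such different depths was not tested. In wild-type replicates 2 and 3 and Nlrp3-/- replicate 1 the dividing carriers of Col2a1 numbered 1, 14 and 8.

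Carriers of Prg4 and Acta2 were more often dividing than other mesenchymal cells, and carriers of Aspn and Tnmd less often, although only the result for Prg4 kept its call under each alternative on all 6 libraries. Among Prg4 carriers, 24.7, 26.9 and 26.2% in the wild-type libraries and 16.4, 15.7 and 16.6% in the Nlrp3-/- libraries were dividing, against 15.8, 16.8 and 11.0% in the wild-type libraries and 9.20, 10.2 and 7.22% in the Nlrp3-/- libraries among cells without Prg4. The carriers were higher in 6 of 6 libraries, by 9.39 ± 3.29 percentage points (SD, n = 6; exact two-sided sign-flip permutation over 6 libraries, p = 0.031, the smallest possible, and Benjamini-Hochberg adjusted p = 0.0391 over the 5 genes). For Aspn the order was opposite, with 11.5% ± 3.14 of the carriers and 24.3% ± 3.89 of the non-carriers dividing (SD, n = 6 libraries). Carriers were lower in each library, with a difference of -12.8 ± 3.52 points (exact p = 0.031, adjusted p = 0.0391). For Tnmd, 8.56% ± 3.69 of the carriers and 15.1% ± 3.58 of the non-carriers were dividing, a difference of -6.58 ± 1.38 points that was negative in each library (exact p = 0.031, adjusted p = 0.0391). Without thinning the differences were -6.34 points for Aspn and -3.50 points for Tnmd, and neither was past the threshold (exact permutation p = 0.0938 each).

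For Acta2, 18.8% ± 6.76 of the carriers and 10.7% ± 2.06 of the non-carriers were dividing. The difference of 8.12 ± 5.89 points was positive in 6 of 6 libraries (exact p = 0.031, adjusted p = 0.0391) but ran from 0.235 points in Nlrp3-/- replicate 1 to 17.1 points in wild-type replicate 1. With a limit of 1 UMI or of 3 UMIs of Mki67 and Top2a it came to 10.9 and 6.92 points and lost the call (exact permutation p = 0.0625 each). For Col2a1, 9.37% ± 3.89 of the carriers and 14.1% ± 4.36 of the non-carriers were dividing, and the difference of -4.69 ± 5.18 points was not past the threshold (exact p = 0.125, adjusted p = 0.125) and was positive in Nlrp3-/- replicate 2. With Mki67 and Top2a counted after thinning too, which leaves fewer dividing cells, the differences were 2.64 points for Prg4, -3.23 for Aspn and -1.47 for Tnmd (exact p = 0.031 each). Acta2 then came to 1.95 points (exact p = 0.0625).

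**Figure D4:**
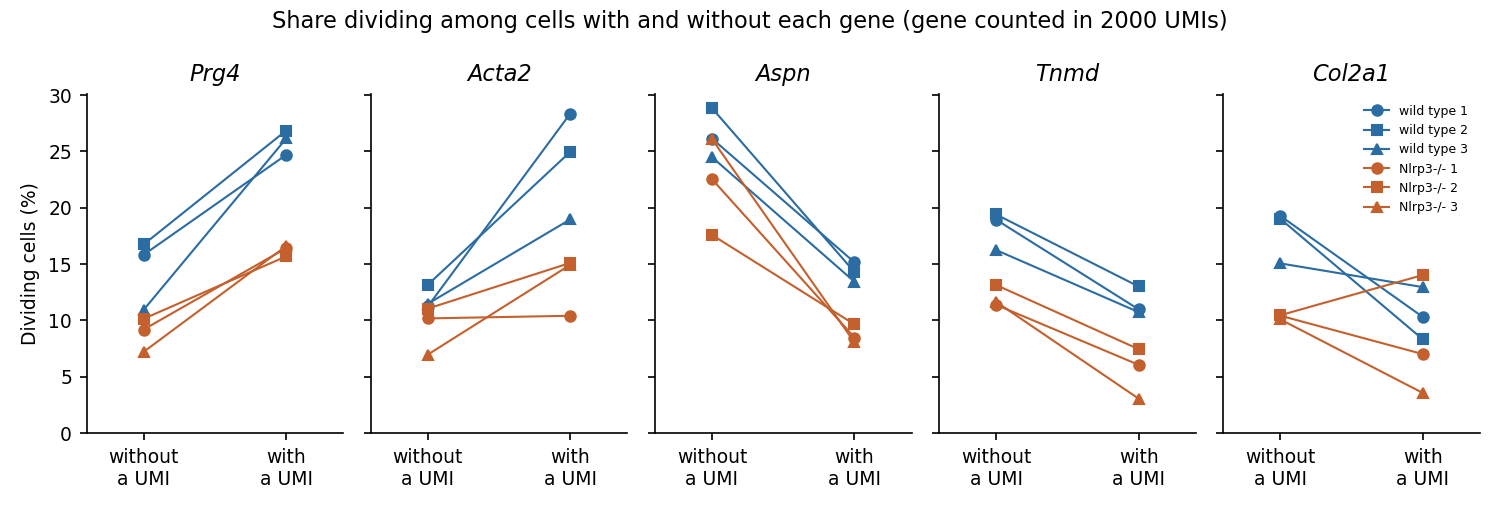
Percentage of mesenchymal cells that were dividing among those without and with a UMI of each lineage gene after thinning to 2000 UMIs, 1 line per library. Dividing was called at full depth. Lines rise for Prg4 and Acta2, fall for Aspn and Tnmd and go both ways for Col2a1, and the blue wild-type points lie above the orange Nlrp3-/- points among carriers of Prg4, Aspn, Tnmd and Acta2.

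Many dividing cells carried several lineage RNAs at this depth. Of the 1784, 4.43% carried none of the 5 genes, 36.6% carried 1, 42.3% carried 2 and 16.6% carried 3 or more, next to 4.55%, 36.1%, 43.0% and 16.3% of non-dividing cells. Prg4 and Acta2 were together in 14.9% of dividing cells, where the product of their separate shares is 20.2%. Prg4 and Aspn were together in 23.0% (product 23.5%) and Aspn and Acta2 in 35.8% (product 35.0%). Aspn and Tnmd were together in 8.07% of dividing and 18.2% of non-dividing cells. Prg4 with Acta2 fell short of the product in each of the 6 libraries after thinning, and over all non-dividing cells (7.87% against 8.85%), although the non-dividing cells lay above the product in Nlrp3-/- replicate 1 (7.77% against 7.35%) and replicate 2 (6.11% against 5.61%). Without thinning the pair was together in 44.5% of dividing cells against a product of 45.3%, and Nlrp3-/- replicate 2 lay above its product (34.9% against 34.5%). These pooled shares mix libraries of different composition and were not tested, and neither was the part in them of doublets. Cells with the highest Scrublet scores were more frequent among dividing cells in 5 of 6 libraries, and dividing cells were deeper in each library.

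The lower dividing share of the Nlrp3-/- libraries was met in 4 of the 5 groups of carriers. The carrier groups share cells and dividing was called at full depth, so they are no separate support for the overall difference. After thinning of Mki67 and Top2a the overall difference was -1.25 points and the genotypes overlapped. Among Prg4 carriers, dividing cells made up 25.9% ± 1.10 against 16.2% ± 0.483 (wild type against Nlrp3-/-, SD, n = 3), among Acta2 carriers 24.1% ± 4.76 against 13.5% ± 2.66, among Aspn carriers 14.3% ± 0.861 against 8.73% ± 0.828 and among Tnmd carriers 11.6% ± 1.25 against 5.53% ± 2.24. The groups did not overlap in these 4, at the smallest p the design allows (exact permutation p = 0.1, Benjamini-Hochberg adjusted p = 0.125 over the 5 genes). Among Col2a1 carriers the shares were 10.5% ± 2.32 against 8.21% ± 5.33 (exact permutation p = 0.5). The makeup of the dividing cells by lineage was less clearly different: Acta2 was carried by 62.4% ± 3.56 of them in wild type and 44.4% ± 16.7 in Nlrp3-/- (exact permutation p = 0.1, adjusted p = 0.5), and the other 4 genes gave exact permutation p of 0.6 or more. The low Acta2 mean drew on Nlrp3-/- replicate 2, at 25.2% against 52.2% and 55.7% in replicates 1 and 3.

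The small leucine-rich proteoglycans, which bind collagen fibrils and set their width, were lower in dividing cells throughout, while the other lists of matrix genes were lower in part. Counts of the lists are to be read beside the shares over all genes, 24.9% higher and 28.5% lower against all non-dividing cells, and 18.3% higher and 20.7% lower of 11939 genes against depth-matched cells. Of the proteoglycans, 11 of 11 (100%) fell, at a median log2 fold change of -0.97 where all tested genes had -0.04. With depth-matched cells 10 of 11 (90.9%) fell, at a median of -0.70. Lum (lumican) lay at 635, 408 and 1216 CPM in the wild-type libraries and 525, 1525 and 877 CPM in the Nlrp3-/- libraries in dividing cells and at 810.2, 675 and 1747 CPM in the wild-type libraries and 1102, 2280.2 and 1803 CPM in the Nlrp3-/- libraries in non-dividing cells. It was lower in each library, with a difference of -0.72 ± 0.09 (log2, SE, edgeR adjusted p = 5.92e-05). Bgn (biglycan) averaged 2386 ± 334 CPM against 3497 ± 348 CPM (dividing against non-dividing, SD, n = 6), Dcn (decorin) 1621 ± 646 CPM against 2176 ± 727 CPM and Fmod (fibromodulin) 286 ± 272 CPM against 507 ± 378 CPM. Their log2 differences of -0.57, -0.47 and -0.97 all passed the threshold, with and without matched depth.

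The collagen list was mixed. Of 24 collagens and assembly genes outside the rule, 14 fell (58.3%) and 4 rose (16.7%), at a median of -0.18, and 13 fell and 2 rose with matched depth. Sparc (osteonectin, a collagen-binding matrix protein) averaged 9679 ± 2788 CPM against 13193 ± 2483 CPM, Fn1 (fibronectin) 3368 ± 1363 CPM against 4472 ± 1401 CPM and Col5a2, a chain of the type V collagen inside fibrils, 2122 ± 596 CPM against 2733 ± 704 CPM, with log2 differences of -0.48, -0.45 and -0.38 (all past the threshold of the edgeR test, lower in 6 of 6 libraries). Serpinh1, the chaperone of procollagen, averaged 2739 ± 299.8 CPM against 2629 ± 307 CPM and did not pass the threshold (0.05, edgeR adjusted p = 0.209). The 4 members that rose were Col5a3 (0.46), the crosslinking enzymes Lox (0.17) and Loxl2 (0.30) and the proline hydroxylase subunit P4ha1 (0.22), named after their values were seen. Of these 4 only Col5a3 kept its call with matched depth.

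Genes of matrix-building fibroblasts followed the proteoglycans, with 11 of 14 (78.6%) lower beside 28.5% of all genes, none higher and a median of -0.60. With matched depth 8 of 14 (57.1%) were lower beside 20.7% of all genes, at a median of -0.37. Postn (periostin, secreted in healing matrix) lay at 1769, 1793 and 4379 CPM in the wild-type libraries and 2745, 2242 and 2997 CPM in the Nlrp3-/- libraries in dividing cells and at 3221, 3273 and 6828 CPM in the wild-type libraries and 5801, 3969 and 6031 CPM in the Nlrp3-/- libraries in non-dividing cells, a difference of -0.89 ± 0.05 (log2, SE, edgeR adjusted p = 1.23e-07). Thbs2 (thrombospondin 2) averaged 574 ± 251 CPM against 1006 ± 464 CPM, a difference of -0.79. Cthrc1, a secreted protein of activated fibroblasts, differed by -0.32 but lost its call with matched depth (-0.19, edgeR adjusted p = 0.198). Tnc (tenascin C) averaged 877 ± 411 CPM against 808 ± 292 CPM and did not pass the threshold (0.07, edgeR adjusted p = 0.594).

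**Figure D5:**
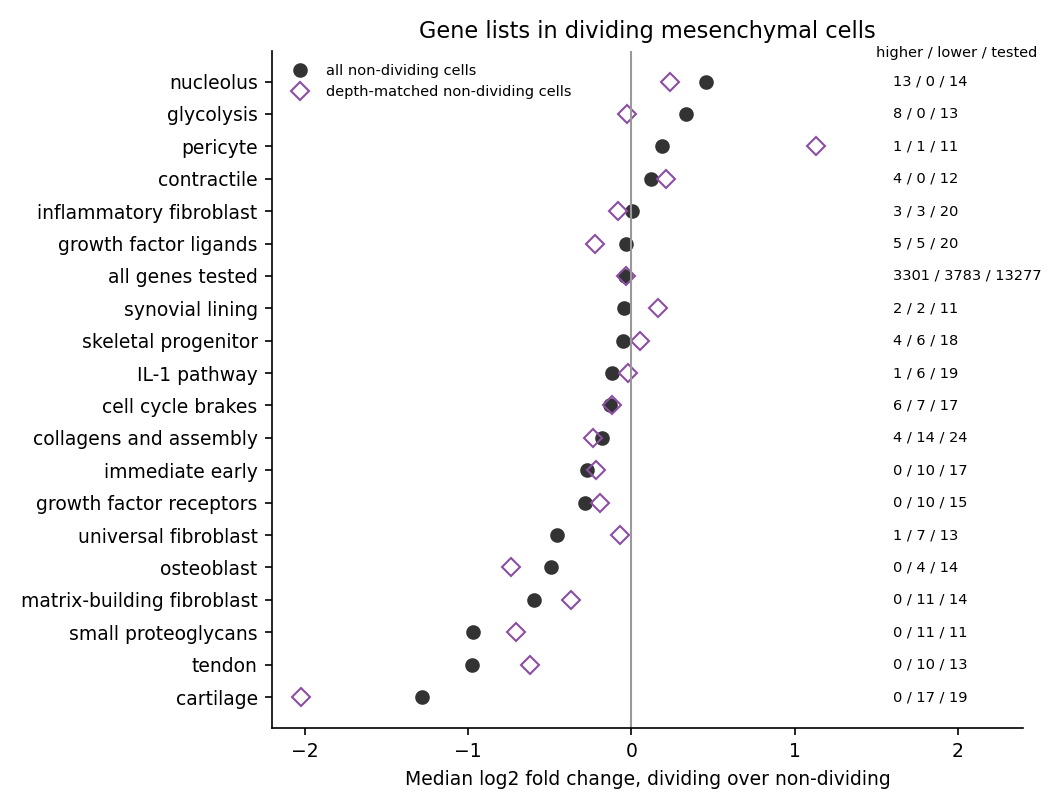
Median log2 fold change of 19 gene lists and of all genes tested between dividing and non-dividing cells, with filled circles for all non-dividing cells and open diamonds for depth-matched non-dividing cells, and the counts of genes higher, lower and tested at the right. The lists of the cell cycle other than the brakes are left out. Against all non-dividing cells the cartilage list lies lowest (-1.28) and the nucleolar list highest (0.46), whereas against depth-matched cells the cartilage list lies lowest (-2.02) and the pericyte list highest (1.13).

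Many tendon and cartilage genes fell in dividing cells, while bone genes fell about as often as genes at large against all non-dividing cells and more often with matched depth. Of the tendon list 10 of 13 (76.9%) fell, beside 28.5% of all genes, and 0 rose at a median of -0.98. With matched depth 6 of 12 (50%) fell, beside 20.7%, at a median of -0.62. Scx (scleraxis, the transcription factor of tendon cells) lay at 72.8, 73.7 and 242 CPM in the wild-type libraries and 83.0, 90.0 and 128 CPM in the Nlrp3-/- libraries in dividing cells and at 82.2, 97.9 and 305 CPM in the wild-type libraries and 169, 146 and 229.5 CPM in the Nlrp3-/- libraries in non-dividing cells. It was lower in each library, with a difference of -0.58 ± 0.10 (log2, SE, edgeR adjusted p = 7.12e-04). Comp, a matrix protein of tendon and cartilage, averaged 433 ± 621 CPM against 858 ± 887 CPM and differed by -1.44 (edgeR adjusted p = 1.78e-05). Thbs4 (thrombospondin 4) differed by -0.35 and lost its call with matched depth (-0.12, edgeR adjusted p = 0.514).

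Of 21 cartilage genes 19 could be tested, of which 17 fell (89.5%) and 0 rose at a median of -1.28, and 19 of 19 (100%) fell with matched depth at a median of -2.02. Acan (aggrecan) lay at 262, 40.0 and 508 CPM in the wild-type libraries and 101, 2506 and 182 CPM in the Nlrp3-/- libraries in dividing cells and at 711, 65.9 and 738 CPM in the wild-type libraries and 248, 2575 and 386 CPM in the Nlrp3-/- libraries in non-dividing cells. As with Col2a1, most of it came from Nlrp3-/- replicate 2, yet each library was lower in its dividing cells, with a difference of -0.85 ± 0.15 (log2, SE, edgeR adjusted p = 6.69e-04). Hapln1, which links aggrecan to hyaluronan, differed by -1.33 and Col9a3, a chain of type IX collagen, by -1.22 (edgeR adjusted p = 0.00428 and 0.00786). Of the bone genes 4 of 14 (28.6%) fell, next to 28.5% of all genes, and 0 rose, at a median of -0.49. Against depth-matched cells 7 of 11 (63.6%) fell, beside 20.7% of all genes, at a median of -0.74. Ibsp (bone sialoprotein) averaged 289 ± 351 CPM against 652 ± 636 CPM (log2 difference -1.39, edgeR adjusted p = 0.0135) and Alpl (alkaline phosphatase) 59.8 ± 81.5 CPM against 91.3 ± 114 CPM (-0.64, edgeR adjusted p = 4.33e-04). Spp1 (osteopontin) averaged 1856 ± 453 CPM against 1576 ± 848 CPM without a call (0.34, edgeR adjusted p = 0.0833).

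The rise of Acta2 was shared by some contractile genes. Of the contractile list 4 of 12 (33.3%) rose, next to 24.9% of all genes, and 0 fell, at a median of 0.12. With matched depth 5 of 11 (45.5%) rose, next to 18.3% of all genes, and 0 fell, at a median of 0.21. Tpm2 (tropomyosin 2) averaged 623 ± 214 CPM against 462 ± 167 CPM and rose by 0.44 ± 0.04 (log2, SE, edgeR adjusted p = 7.01e-06). Actg2 (enteric smooth muscle actin, 0.59), Des (desmin, 0.50) and Csrp1 (0.23) were the other 3 that rose against all non-dividing cells, named after their values were seen. Tagln (transgelin) averaged 465 ± 170.0 CPM against 492 ± 205 CPM (-0.07, edgeR adjusted p = 0.577) and Myl9, a myosin light chain, 177 ± 80.5 CPM against 179.5 ± 72.0 CPM (-0.05, edgeR adjusted p = 0.529), without a call.

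Pericyte genes changed with the choice of comparison cells. Against all non-dividing cells 1 of 11 (9.09%) rose and 1 fell at a median of 0.19, whereas against depth-matched cells 6 of 11 (54.5%) rose, beside 18.3% of all genes, and 0 fell at a median of 1.13. Rgs5, a marker of pericytes, lay at 347, 219 and 149 CPM in the wild-type libraries and 557, 303 and 444 CPM in the Nlrp3-/- libraries in dividing cells and at 255, 209 and 241 CPM in the wild-type libraries and 223, 308 and 265 CPM in the Nlrp3-/- libraries in non-dividing cells. Its difference was 0.31 ± 0.20 (edgeR adjusted p = 0.228) with all cells and 1.43 (edgeR adjusted p = 6.66e-04) with matched depth. Mcam (CD146), the only pericyte gene that rose in both, differed by 0.83 and 1.26. The summed list lay at 529 to 1226 CPM in dividing, 579 to 1277 CPM in non-dividing and 70.6 to 276 CPM in neutrophil-like cells.

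Few genes of the synovial lining list rose with Prg4. Of the list, 2 of 11 (18.2%) tested genes rose, below the 24.9% of all genes, and 2 fell at a median of -0.05. The summed list lay at 4518, 3759 and 2819.6 CPM in the wild-type libraries and 2326, 2553 and 3479.7 CPM in the Nlrp3-/- libraries in dividing cells and at 2892, 2750.2 and 1758 CPM in the wild-type libraries and 1135, 1895 and 1602 CPM in the Nlrp3-/- libraries in non-dividing cells, higher in the dividing cells of each library, and most of it was Timp1. With matched depth 2 of 11 (18.2%) rose and 1 fell, at a median of 0.17. Timp1, an inhibitor of matrix metalloproteinases, lay at 4317, 3544 and 2519 CPM in the wild-type libraries and 2068, 2367 and 3184 CPM in the Nlrp3-/- libraries in dividing cells and at 2673, 2461 and 1422 CPM in the wild-type libraries and 914, 1682 and 1348 CPM in the Nlrp3-/- libraries in non-dividing cells, higher in each library by 0.82 ± 0.10 (log2, SE, edgeR adjusted p = 5.15e-05). Itga6, an integrin chain of laminin receptors, rose by 0.58 but not with matched depth (0.51, edgeR adjusted p = 0.0618). Cd55 (decay-accelerating factor), a lining marker, fell by 1.44 on the log2 scale, and Htra4 by 0.68. The hyaluronan synthases Has1 (0.11) and Has2 (-0.05) had no call.

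Inflammatory fibroblast genes went both ways, with 3 of 20 (15%) higher, as many lower and a median of 0.00, both shares under those of all genes. With matched depth 2 were higher and 5 lower. Ccl2, a chemokine that draws monocytes, lay at 405, 623 and 294 CPM in the wild-type libraries and 769.8, 376 and 486 CPM in the Nlrp3-/- libraries in dividing cells and at 222, 374 and 156 CPM in the wild-type libraries and 220.0, 311 and 167 CPM in the Nlrp3-/- libraries in non-dividing cells. It was higher in 6 of 6 libraries, by 1.01 ± 0.17 (log2, SE, edgeR adjusted p = 5.42e-04), and by 0.56 with matched depth. Cxcl5, a neutrophil chemokine, rose by 0.63 without a call at matched depth (0.30, edgeR adjusted p = 0.0921), and Il1rl1, the receptor of IL-33, rose by 1.14. Hp (haptoglobin), Cxcl12 and Steap4 fell (-0.50, -0.82 and -0.64). Il6 (0.26) and Cxcl1 (0.26) had no call.

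Genes of quiescent universal fibroblasts fell in 7 of 13 (53.8%) and rose in 1, at a median of -0.46, but against depth-matched cells 3 of 10 (30%) fell, beside 20.7% of all genes, at a median of -0.0680. Dpt (dermatopontin), which marks these cells across organs, lay at 73.0, 110.2 and 145 CPM in the wild-type libraries and 70.2, 144 and 133 CPM in the Nlrp3-/- libraries in dividing cells and at 264, 294 and 306 CPM in the wild-type libraries and 187, 352 and 379.9 CPM in the Nlrp3-/- libraries in non-dividing cells, a difference of -1.43 ± 0.08 (log2, SE, edgeR adjusted p = 9.43e-08). Ly6a (Sca-1) averaged 311 ± 119 CPM against 334 ± 153 CPM without a call (-0.09, edgeR adjusted p = 0.499). Of the skeletal progenitor genes 4 of 18 (22.2%) rose and 6 of 18 (33.3%) fell, near the 24.9% and 28.5% of all genes, at a median of -0.05. With matched depth 5 of 16 (31.2%) rose and as many fell, beside 18.3% and 20.7% of all genes, at a median of 0.0505. The 4 that rose against all non-dividing cells were Nes (nestin, an intermediate filament, 1.74), Mcam, Twist2 (0.51) and Itgav (0.22), named after their values were seen, while Ctsk (cathepsin K) fell by 0.76 and Prrx1, a transcription factor of limb mesenchyme, had no call (-0.05).

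Genes that start or restrain the cycle were read next. As a description, 9 of 12 genes of cycle entry lay higher and 1 lower. Cyclin D1 (Ccnd1), which starts G1, lay at 62.4, 42.3 and 59.1 CPM in the wild-type libraries and 92.4, 65.7 and 91.0 CPM in the Nlrp3-/- libraries in dividing cells and at 23.7, 23.6 and 23.5 CPM in the wild-type libraries and 31.2, 31.2 and 21.3 CPM in the Nlrp3-/- libraries in non-dividing cells, while Ccnd2 averaged 88.6 ± 17.2 CPM against 122 ± 10.9 CPM, the opposite order, in 6 of 6 libraries each. Of the brakes 6 of 17 (35.3%) rose and 7 of 17 (41.2%) fell, beside 24.9% and 28.5% of all genes, at a median of -0.13. Cdkn1c (p57), an inhibitor of cyclin-dependent kinases, lay at 35.4, 56.4 and 78.5 CPM in the wild-type libraries and 38.3, 149 and 46.9 CPM in the Nlrp3-/- libraries in dividing cells and at 447, 194 and 222 CPM in the wild-type libraries and 176, 346 and 228 CPM in the Nlrp3-/- libraries in non-dividing cells. It fell by 2.06 with a standard error of 0.24 (edgeR adjusted p = 4.56e-05). Btg1, an anti-proliferative factor, fell by 0.43, and Gas1, named for its expression at growth arrest, by 0.46, the latter without a call at matched depth (-0.06). Cdkn1a (p21) averaged 135 ± 49.7 CPM against 157 ± 73.1 CPM, with a call only at matched depth (-0.20 and -0.80). Brakes that rose included Cdkn2d (p19, 2.21), Cdkn2c (p18, 1.61), Rbl1 (p107, 2.18) and Trp53 (p53, 0.48). The brakes belong to the cycle that selected the cells, so their counts, differences and p-values, those of Cdkn1c included, are a description too.

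Growth factor ligands rose in 5 of 20 (25%) and fell in 5 of 20 (25%), shares close to the 24.9% and 28.5% of all genes. With matched depth 1 of 18 rose and 5 fell, at a median of -0.22. Igf1, a growth factor made by fibroblasts, lay at 101, 84.8 and 285 CPM in the wild-type libraries and 217, 312 and 218 CPM in the Nlrp3-/- libraries in dividing cells and at 506, 363 and 968 CPM in the wild-type libraries and 1019, 1082 and 1227 CPM in the Nlrp3-/- libraries in non-dividing cells. It fell in each library, by 2.12 with a standard error of 0.09 on the log2 scale (edgeR adjusted p = 1.30e-08). Pdgfa, a platelet-derived growth factor chain, averaged 138 ± 29.9 CPM against 100.4 ± 6.24 CPM and rose by 0.43 (edgeR adjusted p = 0.00135). Inhba, the activin A subunit, rose by 0.68 but not at matched depth (0.02), and Ccn2 (connective tissue growth factor) fell by 0.52. Of the receptors 10 of 15 (66.7%) fell, beside 28.5% of all genes, and 0 rose at a median of -0.28. With matched depth 6 of 15 (40%) fell, beside 20.7%, and 1 rose. Fgfr1 averaged 122 ± 25.9 CPM against 169 ± 24.7 CPM (-0.49, edgeR adjusted p = 3.48e-04). Pdgfrb averaged 168 ± 47.8 CPM against 160.1 ± 35.3 CPM without a call (0.04), and Pdgfra fell by 0.15 without a call at matched depth (0.10).

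In the IL-1 pathway, which the NLRP3 inflammasome feeds through caspase-1, 1 of 19 genes rose and 6 of 19 (31.6%) fell at a median of -0.12, near the 28.5% of all genes that fell. With matched depth 0 of 18 rose and 1 fell, at a median of -0.0186. Il1r1, the IL-1 receptor, lay at 112, 146 and 69.9 CPM in the wild-type libraries and 121, 62.0 and 124 CPM in the Nlrp3-/- libraries in dividing cells and at 143, 180.0 and 80.9 CPM in the wild-type libraries and 112, 76.1 and 132 CPM in the Nlrp3-/- libraries in non-dividing cells. The difference of -0.20 ± 0.06 (log2, SE, edgeR adjusted p = 0.0195) turned to 0.08 with matched depth (edgeR adjusted p = 0.359). Nfkbia and Nfkbiz, regulators of NF-kB, had no call (0.17 and 0.05). Immediate early genes, which also respond to tissue dissociation, were lower in 10 of 17 (58.8%) and higher in 0, and lower in 10 of 17 (58.8%) with matched depth, beside 28.5% and 20.7% of all genes. Fos lay at 269 ± 129 CPM against 391 ± 201 CPM (-0.55, edgeR adjusted p = 9.65e-05) and Jund at 635 ± 162 CPM against 881 ± 285 CPM (-0.46). The part of dissociation in these differences was not tested.

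Genes of ribosome building rose with division. Of the nucleolar genes 13 of 14 (92.9%) rose, beside 24.9% of all genes, and 0 fell at a median of 0.46. With matched depth 7 of 14 (50%) rose, beside 18.3%, at a median of 0.24. Npm1 (nucleophosmin) averaged 1441 ± 123 CPM against 1017 ± 129 CPM (0.50, edgeR adjusted p = 3.31e-06) and Ncl (nucleolin) 492 ± 41.3 CPM against 319 ± 31.6 CPM (0.62, edgeR adjusted p = 6.61e-07), both higher in 6 of 6 libraries and past the threshold at matched depth. For glycolysis, 8 of 13 (61.5%) rose, but 0 rose and 1 fell against depth-matched cells. Gapdh averaged 1259.6 ± 383 CPM against 929 ± 332 CPM, a difference of 0.46 that came to 0.11 with matched depth (edgeR adjusted p = 0.434). Ldha, the lactate dehydrogenase chain A, went from 0.38 to -0.03 in the same way.

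Outside the replication, G2/M and chromatin lists, the 10 genes with the largest rises that moved alike in all 6 libraries were still mostly of chromosomes. They were the replication-dependent histones Hist1h1b (5.76 on the log2 scale), Hist1h2ap (5.32) and Hist1h2ae (4.62), whose reads can be shared with near-identical copies so that their levels are uncertain, the kinetochore genes Spc24 (3.48) and Cenpw (2.81), the condensin Smc2 (3.43), securin Pttg1 (3.35), the nuclear lamina protein Tmpo (2.79), the kinase inhibitor Cdkn2d of the list of brakes (2.21) and Dnajc9, a histone co-chaperone (2.21). As genes of the cycle that selected the cells, they are a description.

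The 10 genes with the largest falls were secreted proteins apart from the kinase inhibitor Cdkn1c and the membrane proteoglycan Snorc of cartilage. The fall of Cdkn1c, a brake of the cycle that selected the cells, is a description. Clec3b (tetranectin) lay at 16.0, 54.1 and 132 CPM in the wild-type libraries and 4.18, 31.4 and 15.5 CPM in the Nlrp3-/- libraries in dividing cells and at 202, 261 and 335 CPM in the wild-type libraries and 42.2, 159 and 153 CPM in the Nlrp3-/- libraries in non-dividing cells, a fall of 2.50 (log2, edgeR adjusted p = 1.36e-05). Eln (elastin, -2.29) and Mfap4, of elastic fibres (-1.88), fell as well. So did Gas6, the ligand of TAM receptors (-2.05), the complement component C3 (-1.85), the selenium carrier Selenop (-1.80), Snorc (-1.93) and Igf1. Col10a1, the collagen of hypertrophic chondrocytes, differed most (-3.95, edgeR adjusted p = 4.91e-05) and lay at 27.0, 0 and 0.857 CPM in the wild-type libraries and 0.644, 179 and 0.613 CPM in the Nlrp3-/- libraries in dividing cells. Most of its UMIs in dividing cells came from wild-type replicate 1 and Nlrp3-/- replicate 2, with at most 0.857 CPM in the other 4 libraries. All 10 kept their calls with matched depth and without Nlrp3-/- replicate 1. With a limit of 1 UMI of Mki67 and Top2a, Col10a1 came to -1.39 (edgeR adjusted p = 0.0670) and Snorc to -0.68 (edgeR adjusted p = 0.218), so that neither was called.

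RNA of other cell types was low in the dividing cells but not even. The summed neutrophil list lay at 152 to 401 CPM in dividing and 144 to 361 CPM in non-dividing cells, against 53232 to 80417 CPM in neutrophil-like cells (1 rose and 1 fell of 10 tested among 10 listed), and the macrophage list at 202 to 1042 CPM in dividing and 162 to 1264 CPM in non-dividing cells (0 rose and 0 fell of 12 tested among 12 listed). The B cell list lay at 19.0 to 53.1 CPM in dividing and 8.89 to 21.1 CPM in non-dividing cells (4 rose and 0 fell of 5 tested among 6 listed), the T and NK list at 25.4 to 202 CPM in dividing and 13.2 to 40.6 CPM in non-dividing cells (2 rose and 0 fell of 3 tested among 8 listed) and the mast cell list at 0.951 to 31.6 CPM in dividing and 0.544 to 3.17 CPM in non-dividing cells, with none testable. The erythroid list lay at 6.31 to 528 CPM in dividing and 6.60 to 340.2 CPM in non-dividing cells (5 rose and 0 fell of 6 tested among 10 listed). Its carbonic anhydrase gene Car2 averaged 32.0 ± 24.7 CPM against 4.64 ± 7.28 CPM and beta globin Hbb-bs 86.4 ± 89.9 CPM against 50.9 ± 76.6 CPM, and 8 dividing cells had at least 1% haemoglobin UMIs. The endothelial list lay at 23.8 to 67.6 CPM in dividing and 21.4 to 62.4 CPM in non-dividing cells (2 rose and 0 fell of 5 tested among 9 listed), the muscle list at 14.9 to 63.3 CPM in dividing and 17.6 to 50.1 CPM in non-dividing cells (1 rose and 1 fell of 2 tested among 8 listed) and the Schwann list at 5.27 to 63.4 CPM in dividing and 11.2 to 42.2 CPM in non-dividing cells (0 rose and 0 fell of 4 tested among 8 listed). Over all genes the shares were 24.9% higher and 28.5% lower. With matched depth 4 of 4 B cell, 5 of 5 erythroid, 1 of 5 endothelial and 1 of 1 muscle genes rose, beside 18.3% of all genes. Of the macrophage list 2 of 11 fell and of the Schwann list 1 of 3, beside 20.7%. The 3 T and NK genes and 9 neutrophil genes tested then had no call. Ptprc and Cdh5, defining markers of leukocytes and endothelium, were at 0 by the rule. The part of this RNA in the results above was not tested. Added limits allowed at most 1 UMI of Tyrobp, Laptm5, Coro1a, Pecam1, Gata1 and Klf1 together and under 1% haemoglobin UMIs. They hold no marker particular to B, T or NK cells and do not remove free RNA. With them 6491 of 12688 genes were called, and the difference was 1.14 for Prg4, 0.60 for Acta2 and -1.13 for Aspn. The general mesenchymal list lay at 9016 to 13983 CPM in dividing cells and 11497 to 17658 CPM in non-dividing cells.

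Last, the genotypes were compared within the dividing cells. Of 11998 genes tested, 13 passed the threshold (0.108%, the edgeR quasi-likelihood test with Benjamini-Hochberg adjustment), 5 higher and 8 lower in Nlrp3-/-, while 1433 had an unadjusted p under 0.05 and DESeq2 called 69. The count depended on single libraries, with 8 without wild-type replicate 1, 7 without wild-type replicate 2, 8 without Nlrp3-/- replicate 1 and 4 without Nlrp3-/- replicate 3. Among non-dividing cells 14 genes passed, 9 of them the same. Xist and Tsix, transcribed at the X-inactivation centre, and the Y-linked Ddx3y, Uty and Kdm5d, which follow sex, were among the 13. Nlrp3 itself was called, with the values given at the start, but not when any single library other than Nlrp3-/- replicate 2 was left out. Outside these, Tpm3-rs7, a tropomyosin-like gene whose reads can be shared with Tpm3 and whose level is therefore uncertain, lay at 103, 55.8 and 135 CPM in the wild-type libraries and 0.644, 1.92 and 1.84 CPM in the Nlrp3-/- libraries (-6.03 on the log2 scale, edgeR adjusted p = 0.00261). Wdfy1, an endosomal adaptor protein, lay at 44.5, 47.0 and 55.0 CPM in the wild-type libraries and 13.8, 13.1 and 15.2 CPM in the Nlrp3-/- libraries (-1.92, edgeR adjusted p = 0.00261). Itga6, the one gene of the lists with a call, lay at 6.46, 6.03 and 6.85 CPM in the wild-type libraries and 19.0, 24.7 and 18.8 CPM in the Nlrp3-/- libraries (1.58, edgeR adjusted p = 0.0388). For these 3 genes the groups did not overlap, which was a condition for naming Tpm3-rs7 and Wdfy1 and is no further support. The share of all genes without overlap was not counted. The remaining genes, named after their values were seen, were Thg1l and Gm8797, higher in Nlrp3-/-, and Lyrm7 and Gm42031, lower.

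None of the 5 lineage genes passed the threshold between the genotypes. The log2 differences, Nlrp3-/- over wild type, were 0.30 (edgeR adjusted p = 0.718) for Prg4, -0.61 (edgeR adjusted p = 0.492) for Acta2, -0.00268 (edgeR adjusted p = 0.999) for Aspn, 0.18 (edgeR adjusted p = 0.887) for Tnmd and 2.33 (edgeR adjusted p = 0.652) for Col2a1. The standard errors were 0.36, 0.36, 0.40, 0.46 and 2.24, so the differences of these 5 genes were not told apart from the spread between libraries. The value for Col2a1 came from Nlrp3-/- replicate 2 and was -3.01 without it. The replication list had a median of -0.01 and the G2/M list of 0.11, with no call among their genes, where all genes tested had 0.02. All 17 tested brakes had positive values at a median of 0.36, none past the adjusted threshold and 7 under an unadjusted 0.05. Over all 11998 genes 6340 were positive and 1433 were under an unadjusted 0.05. All 11 tested contractile genes had negative values at a median of -0.76, also without a call. Non-dividing cells were much alike, with 16 of 17 brakes positive at a median of 0.36. There 1 of 12 contractile genes was positive, at a median of -0.51. The cartilage list had a median of 2.27, again with Nlrp3-/- replicate 2 far above the rest. Genes of a list are not independent replicates, and these counts are descriptions. RNA of other cell types also differed between the libraries of the genotypes. In dividing cells the summed erythroid list lay at 100.4, 6.31 and 85.0 CPM in the wild-type libraries and 316, 528 and 215 CPM in the Nlrp3-/- libraries, so that the groups did not overlap, and 8 of 8 tested genes had positive values at a median of 1.96, none of them called. In non-dividing cells the same list lay at 16.5, 12.6 and 6.60 CPM in the wild-type libraries and 131, 340.2 and 46.1 CPM in the Nlrp3-/- libraries. The macrophage list lay at 218, 315 and 202 CPM in the wild-type libraries and 1042, 219 and 418 CPM in the Nlrp3-/- libraries in dividing cells, highest in Nlrp3-/- replicate 1 and overlapping between the groups, with positive values for 10 of 11 tested genes at a median of 0.86, none called. The pericyte list lay at 809, 711 and 529 CPM in the wild-type libraries and 1115, 1226 and 985 CPM in the Nlrp3-/- libraries in dividing cells, without overlap, with positive values for 10 of 11 tested genes at a median of 0.58, none called. This order was opposite to that of the contractile list, which lay at 2885, 3081 and 2378 CPM in the wild-type libraries and 2297, 956 and 2280.0 CPM in the Nlrp3-/- libraries in dividing cells, also without overlap. How many of all the lists had no overlap was not counted. The part of this RNA in the comparisons of the genotypes was not tested. With the same limits on markers of other cell types, 12 of 11428 genes were called between the genotypes.

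Whether the genotype effect differed between dividing and non-dividing cells was tested by an interaction. Of 14044 genes, 1 passed (0.00712%, edgeR quasi-likelihood test), while 850 had an unadjusted p under 0.05 and DESeq2 called 11. The gene was 1520401A03Rik, a RIKEN cDNA gene, at 2.09, 0 and 0 CPM in the wild-type libraries and 0, 110.1 and 0.153 CPM in the Nlrp3-/- libraries in dividing cells and 38.2, 0.0711 and 0.554 CPM in the wild-type libraries and 0.0528, 113 and 0.0544 CPM in the Nlrp3-/- libraries in non-dividing cells. Only wild-type replicate 1 and Nlrp3-/- replicate 2 held more than a few CPM, and the call was lost without either. The 11 genes called by DESeq2, which gave it no adjusted p, did not include it. Of the 13 genes called in dividing cells, 4 were not called in non-dividing cells (Gm42031, Itga6, Nlrp3 and Wdfy1), and none of these 4 passed the interaction test, so a difference between the states was not shown for them.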

How the data were processed

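The authors deposited one matrix of raw UMI counts per library (10x Genomics 3′ v3), with all barcodes and 32285 genes. The file headers name Cell Ranger 4, whereas the submitters' notes name Cell Ranger 2.1.1, with mm10; which version made the counts is not settled here. Genome coordinates are from RefSeq on GRCm38.p6 (mm10).

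Cells were selected by the limits given at the start of the results, with no clustering. Counts were summed per library and state (dividing, non-dividing) and tested with edgeR 4.0.16 in R 4.3.3 (TMM normalisation, filterByExpr, quasi-likelihood test, Benjamini-Hochberg, threshold 0.05), with library as a block for dividing against non-dividing cells and genotype alone within dividing cells. A fit of both states with libraries as a block gave the interaction. Depth matching drew, per library, as many non-dividing as dividing cells in each bin of UMIs (0.1 on the log10 scale), as far as a bin held enough of them. Thinning drew 2000 UMIs per cell without replacement. Shares were compared by exact permutation tests over all assignments or sign flips, and Wilson intervals were made with scipy 1.17.1. DESeq2 1.42.0 and Scrublet in scanpy 1.11.5 served alternatives, as did other limits, filters and leaving out each library. Scripts were tested on simulated counts.

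The members and gene lists were chosen with earlier results of these data known. Genes named were, besides the markers, lineage genes, Nlrp3, Xist, Ddx3y and Il1r1, the members of each list with the highest CPM in dividing cells (up to 4), and the genes with the largest changes past the threshold: 10 a direction between states (50 CPM or more, all 6 libraries alike) and 8 a direction between genotypes (20 CPM or more, no overlap). Eif2s3y was also planned for naming. It was not among the genes called between genotypes in dividing cells, and its values are not printed here. Other names were chosen after their values were seen. Replicate numbers did not pair the libraries.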

Additional observations from a re-analysis of the deposited data

Results flagged for a closer look

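The depth of dividing over non-dividing cells was nearly even in one library. The ratio of their median UMIs was 1.12 in Nlrp3-/- replicate 1 and 1.501 to 1.71 in the other 5, a gap wide enough to stand out among 6 values, as chance does in about 1 of 20 such groups. This library also had the shallowest dividing cells and the largest share of them with Tyrobp.

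The genotype effect on 1520401A03Rik differed between dividing and non-dividing cells by 4.07 on the log2 scale (interaction term, edgeR quasi-likelihood test, adjusted p = 0.00112). Without wild-type replicate 1 it was 5.03 (edgeR adjusted p = 1) and without Nlrp3-/- replicate 2 4.96 (edgeR adjusted p = 0.563), and with a collagen limit of 2% it was 2.68 (edgeR adjusted p = 0.101).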

How the results depend on the processing

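Of the alternatives to the main results, 114 kept direction and side of the threshold, 29 kept the direction but not the call, 21 moved a count by over 1.5 times and 1 reversed. Part of this tally was fixed by the design. Exact permutation tests of 3 against 3 libraries cannot give p below 0.1, so their side of the threshold could not change. Carrier tests with 1 library left out could not pass it. The tally is therefore a description. The cause of a change was not tested unless named. The share of dividing cells stayed lower in Nlrp3-/- under each alternative run, by -7.97 to -1.25 points. Leaving out 1 library gave carrier differences of 8.23 to 10.2 points for Prg4, -13.7 to -11.7 for Aspn, -6.83 to -6.18 for Tnmd and 6.32 to 9.69 for Acta2, where 5 libraries cannot give an exact permutation p below 0.0625. Without thinning the differences were -6.34 for Aspn, -3.50 for Tnmd (exact permutation p = 0.0938 each) and 2.52 for Col2a1, a reversal. For Acta2 the call was lost with a limit of 1 UMI (10.9 points), of 3 UMIs (6.92) and with Mki67 and Top2a thinned too (1.95).

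Genes called between states numbered 4655 with depth-matched cells. Genes called between genotypes numbered 23 without a filter on low counts, 69 by DESeq2 and 4 to 13 with 1 library left out. Interaction calls numbered 2 with a minimum of 1000 UMIs, with a collagen limit of 2% and with RLE size factors. They numbered 3 with a limit of 1 UMI of Mki67 and Top2a, 4 with limits on other cell types and 5 with the highest doublet scores removed. DESeq2 gave 11 and the fit without a filter 137. With 1 library left out they numbered 0 to 16, 0 without wild-type replicate 1 and 16 without Nlrp3-/- replicate 2. Between genotypes Aspn turned to 0.24 with a limit of 1 UMI, 0.16 with a collagen limit of 2%, 0.60 without wild-type replicate 3 and 0.15 without Nlrp3-/- replicate 2. Tnmd turned to -0.0251 with limits on other cell types, -0.13 without wild-type replicate 1 and -0.42 without Nlrp3-/- replicate 2, and Col2a1 to -3.01 without Nlrp3-/- replicate 2. With 1 library left out, these genotype differences ran from -0.29 to 0.60 for Aspn, from -0.42 to 0.48 for Tnmd and from -3.01 to 3.15 for Col2a1. Il1r1 turned to 0.0792 between states with matched depth.

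Samples with the same replicate number correlated at -0.234, -0.565 and -0.236, so the numbers did not pair the genotypes. With the replicate number as a block 7 genes were called between genotypes, the share of dividing cells gave p = 0.25 in the exact permutation test, the lowest value that this blocked design can reach, Aspn turned to 0.15 and Col2a1 to -2.03. Without the block of library, 2983 genes were called between states, and the calls of Acta2, Col2a1, Il1r1, Col10a1 and Snorc were lost.

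Pooled animals, 3 libraries a group and the shared direction of genotype, sex and supplier of the mice limit every comparison of genotypes. A limit in whole UMIs finds fewer dividing cells in shallow libraries, of which Nlrp3-/- replicate 1 is one. After thinning, the carrier shares of neutrophil-like barcodes were highest for Aspn in Nlrp3-/- replicate 1 (31.2%) and for Col2a1 in Nlrp3-/- replicate 2 (30.5%). The part of free RNA in the carrier shares of dividing cells was not tested.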
